A study of Homo sapiens with 4 samples.

Results

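The transcriptome of SUM149 cells, a line from a triple-negative inflammatory breast cancer, was compared between 6 h of Ricolinostat and no treatment. The comparison used the array of cells given 2.5 uM of the drug (ACY1215) for 6 h and the array of untreated cells, that is 2 of the 4 two-colour Agilent arrays of the study. The other 2 arrays, at 3 h and 12 h of the same dose, appear below only beside the values at 6 h. Cy5 carried the RNA of each condition and Cy3 a common reference that the labels call a pool of all the untreated and treated cells. A gene was measured when its probe passed Agilent's flag for a signal well above background, for Cy5 and for Cy3 on each array, carried no outlier flag, and had Cy3 signals within 2-fold of each other on the 2 arrays. Of 34755 gene symbols on the array, 20313 (58.5%) were measured, and the other 14442 included 11296 whose Cy5 signal was not well above background on either array. The quantity reported, called the log2 change, is log2(Cy5/Cy3) at 6 h minus log2(Cy5/Cy3) on the untreated array.

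Each condition was 1 array of 1 cell line, so no test was made, and every value describes these arrays. No array of cells given vehicle for 6 h was analysed here, so effects of the drug and of the added hours cannot be told apart. The labels do not say whether the RNA of each array came from more than 1 culture. Errors after ± are technical: they combine the errors that Agilent's software gives for the log ratios of both arrays, and hold no biological spread. Repeated spots of 1 probe gave a smaller technical spread, a root mean square SD of 0.08 in the log2 change over 200 probes, while the combined error had a median of 0.31.

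Ricolinostat was designed to block HDAC6, a mostly cytoplasmic deacetylase. HDAC6 takes acetyl groups off alpha-tubulin, cortactin, peroxiredoxins and the chaperone HSP90, and it carries ubiquitin-tagged misfolded proteins to the aggresome for clearance by autophagy. The class I enzymes HDAC1, HDAC2 and HDAC3 work on histones in the nucleus, and at higher doses Ricolinostat also acts on them. An enzyme inhibitor need not alter the transcript of its target, so the arrays report what the cells transcribed after the drug and not the activity of the enzyme. In bulk RNA, fewer cells that express a gene and less RNA per cell cannot be told apart.

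The label of the cells was set against marker genes. Of 11 basal breast epithelial markers, 10 were well above background in Cy5 on both arrays, among them KRT5 (Cy5 signal 16800 untreated and 20550 at 6 h) and CDH3 (14640 and 17030), and TP63 was not well above background on either. All 6 general epithelial markers and 10 of 11 luminal markers were also well above background, with the progesterone receptor gene PGR the exception. Of the markers of other cells, 7 fibroblast genes of 8 were well above background untreated and 6 at 6 h, 4 endothelial genes of 6 on both arrays, 6 leukocyte genes of 7 on both arrays, and 0 adipocyte genes of 4 on either. The summed Cy5 signal was 9778 untreated and 7725 at 6 h for the fibroblast markers, most of it from FAP (7713 and 5132), 1025 and 1044 for the endothelial markers, and 3178 and 4310 for the leukocyte markers, most of it from CD14 (1989 and 3099). COL3A1, TEK, CLDN5 and MS4A1 were not well above background on either array. No measured marker of fibroblasts, endothelial cells or leukocytes changed 2-fold. The part of these transcripts in the results was not tested. The Cy3 reference did not look like a pool of these cells for every gene: COL1A2, a collagen gene of fibroblasts, gave Cy3 signals of 14690 and 15890 beside Cy5 signals of 287 and 310. For this reason a ratio on 1 array was not read as a level, and differences between arrays were used.

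Arrays of both conditions were alike in brightness. The median Cy5 signal over all spots was 38.5 on the untreated array and at least 36.0 on each of the 4, over a local background of 24.0 on each. Damaged areas, windows of the array with at least 10% of defective spots, held 3.82% of the spots of the untreated array and 0.470% of those of the 6 h array. They held 82 of the 1694 genes counted below as changed (4.84%), against 2.45% of all measured genes.

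At 6 h, 1107 genes were at least 2-fold higher than untreated (5.45% of those measured) and 587 were at least 2-fold lower (2.89%). In what follows "rose" and "fell" are used of such genes, and the 2 percentages are the background for every count of a gene group. The median log2 change of all measured genes was -0.04, and 75.9% of the genes lay within 1.5-fold of their untreated value. At least 4-fold, 132 genes were higher and 26 were lower. Every one of the 1107 and 587 genes changed in the same direction when Cy5 was used alone. The filter nearly fixed that agreement in advance, because a 2-fold ratio change with Cy3 within 2-fold leaves Cy5 little room to turn. The direction was also the same for every one after a normexp background correction with an offset of 50, a method that shrinks ratios of dim spots. The number past 2-fold depended on that choice, and normexp with an offset of 50 gave 565 higher and 173 lower genes, 76.6% of them higher against 65.4% above. Below, "after normexp" stands for the log2 change under that setting. It was under 2-fold for 27 of the 86 list genes past 2-fold. For the genes named the value is given where the fold, off the log scale, moved by over 1.5 times or the call ended. Close to the threshold, HDAC7, FOSL1 and SPRY2 lay between -0.99 and -0.91 after normexp, and H1F0, NFKBIE, CDKN2C and OCLN between 0.95 and 0.98. Of the other probes for the changed genes, 414 of 469 (88.3%) moved in the same direction and 35.6% also reached 2-fold.

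**Figure D1:**
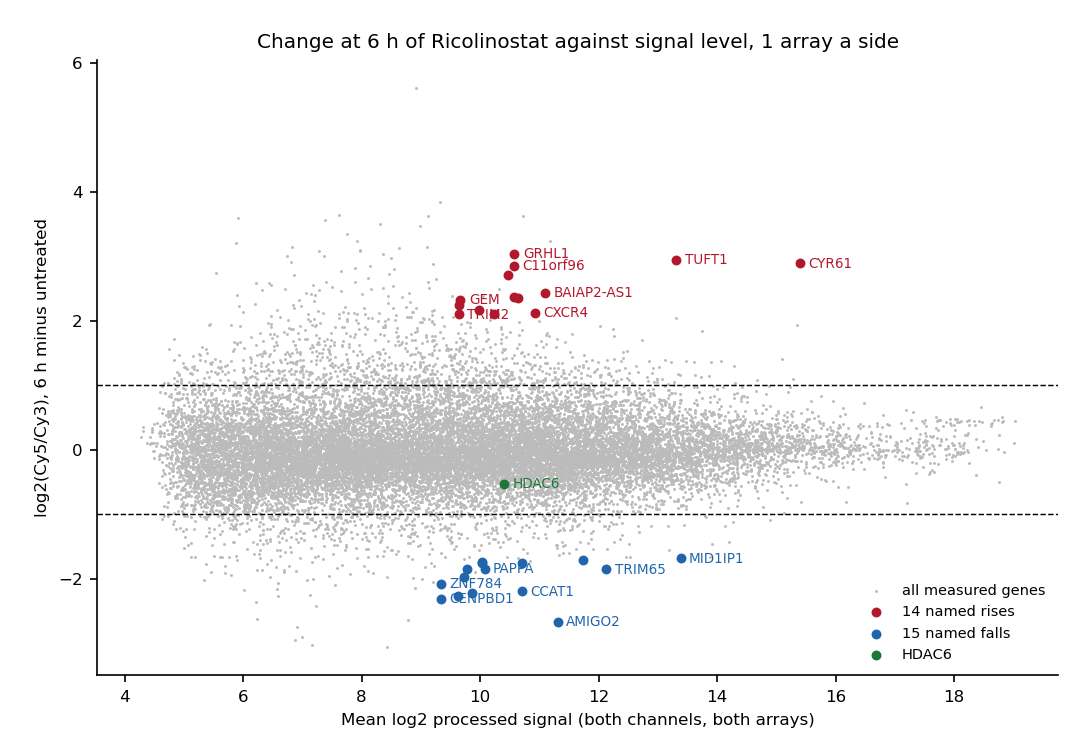
Log2 change at 6 h (vertical axis) against the mean log2 processed signal over both channels and both arrays (horizontal axis) for the 20313 measured genes (grey points), with 14 named rises in red, the 15 named falls in blue, HDAC6 in green and dashed lines at 2-fold. The upper line had 1107 genes above it, the lower one had 587 below it, and HDAC6 lay between them at -0.53.

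HDAC6 itself did not reach 2-fold. Its brighter probe gave Cy5 signals of 1073 untreated and 878 at 6 h, and Cy3 signals of 1749 and 2070. The log2 change was -0.53 ± 0.32, beside -0.53 at 3 h and -0.70 at 12 h. A second, dimmer probe gave Cy5 signals of 117 and 124 and a log2 change of -0.14 ± 0.31. After normexp with an offset of 50 the brighter probe gave -0.25.

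Nearly all transcripts of the proteins that HDAC6 acts on or works with were within 2-fold of their untreated values. All 15 genes of this list were measured, 1 rose, none fell and the median log2 change was -0.17. The riser was DNAJB1, a co-chaperone of HSP70 (1.09 ± 0.33), which is described with the heat shock genes. The alpha-tubulin genes TUBA1A, TUBA1B and TUBA1C lay at -0.37, -0.21 and -0.37, and the cortactin gene CTTN at 0.15. The peroxiredoxin genes PRDX1 and PRDX2 lay at 0.34 and -0.19, and HSP90AA1, which encodes inducible HSP90, at 0.27. Genes of the ubiquitin arm showed 0.61 for UBXN1, -0.22 for VCP, the segregase that binds HDAC6, and -0.47 for the autophagy receptor gene SQSTM1. HIF1A, whose protein is an HSP90 client, lay at 0.46, with a second probe at 1.78. The kinase gene AKT1 lay at -0.35, and BRMS1, a metastasis suppressor gene, at 0.07.

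Of the 10 measured genes among 11 classical deacetylases, 0 rose and 1 fell. HDAC7, a class IIa enzyme, had Cy5 signals of 1461 untreated and 782 at 6 h and a log2 change of -1.04 ± 0.30, while its second probe gave -0.47. HDAC3, the catalytic part of the NCoR corepressor complex, was at 13600 and 27330 (0.74 ± 0.31). HDAC9 lay at -0.63, but at 0.02 after normexp with an offset of 50. HDAC10 lay at -0.57, and HDAC4 was not measured. Among 14 acetyltransferase genes, the opposing enzymes, 1 rose and 2 fell. KAT5, which encodes the TIP60 enzyme, went from a Cy5 signal of 917 to 359 (-1.44 ± 0.30). KAT6B gave -2.95 with the probe used, from 234 to 38.8 in Cy5, but -0.83 after normexp with an offset of 50, and its other probe gave 0.13. KAT2B (PCAF) rose from 53.1 to 151 (1.30 ± 0.49), with 0.38 after normexp with an offset of 50. ATAT1, the acetyltransferase for alpha-tubulin, lay at 0.83.

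Among genes known to rise under inhibitors of class I HDACs, all 21 were measured, 7 rose (33.3%) and 0 fell, and the median log2 change was 0.74. Over all measured genes 5.45% rose and the median was -0.04. Of the 21 genes 15 lay above 0 and 6 below, the lowest at -0.65. GLRX, a glutaredoxin gene, went from 2783 to 9835 in Cy5 with Cy3 at 8524 and 9278, a change of 1.70 ± 0.32. Its changes at 3 h and 12 h were 0.91 and 1.78. KLF2, a transcription factor gene, went from 145 to 561 (1.69 ± 0.51). CDKN1A, which encodes the cell cycle inhibitor p21, went from 97.0 to 313 (1.49 ± 0.39), but normexp with an offset of 50 gave 0.62. ATF3, a stress-induced transcription factor gene, went from 1920 to 5208 (1.38 ± 0.36), with 4 probes between -0.22 and 1.39. The median of the list was 0.59 after normexp with an offset of 50, 0.53 in the authors' normalized table and 0.45 above the median signal. The direction of these genes is what the list was made for, and no test of the list was made. The list was also chosen with earlier results of these data known.

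The largest changes were read among genes above the median signal, outside the damaged areas, past 2-fold also after normexp with an offset of 50, and with all probes in 1 direction. Such genes numbered 323 higher (1.59% of those measured) and 122 lower (0.601%). The largest rise was GRHL1, a grainyhead transcription factor gene of epithelia, with Cy5 signals of 659 untreated and 7528 at 6 h and Cy3 signals of 894 and 1234. Its log2 change was 3.05 ± 0.38, an 8.28-fold rise, beside 2.41 at 3 h and 2.98 at 12 h. TUFT1, which encodes tuftelin, went from 3075 to 27190 (2.95 ± 0.35). CYR61 and CTGF, now called CCN1 and CCN2, encode secreted matricellular proteins and are described below. C11orf96 (2.86), the antisense RNA gene BAIAP2-AS1 (2.43), the ESCRT gene VPS37D (2.37) and the translation regulator gene CPEB4 (2.36) followed. The others were GEM (2.32) and RGL1 (2.25), genes of small GTPase signalling, the gasdermin gene GSDMB (2.17), the chemokine receptor gene CXCR4 (2.12 ± 0.73), the Rab effector gene SYTL2 (2.11) and the ubiquitin ligase gene TRIM2 (2.10). CXCR4 had the widest error of these, with Cy5 signals of 155 and 815 beside Cy3 signals of 9617 and 11660. The strand of BAIAP2-AS1 is that of the probe as annotated, and its 2 probes gave 1.77 and 2.43.

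Among the falls AMIGO2, a gene for an adhesion protein of the cell surface, was the largest. Its Cy5 signal was 10330 untreated and 1785 at 6 h, with Cy3 signals of 1436 and 1580, and the log2 change was -2.67 ± 0.39, beside -1.68 at 3 h and -2.08 at 12 h. MEPCE, which caps the 7SK RNA that holds back transcription elongation, went from 1916 to 451 (-2.22 ± 0.32). JADE2, a scaffold of an acetyltransferase complex, went from 2476 to 481 (-2.27 ± 0.35). CENPBD1 (-2.31), the zinc finger genes ZNF784 (-2.08), ZNF239 (-1.84) and ZFAT (-1.76), BEND3 (-1.76) and ZC3H4 (-1.71) were lower as well. The second probes of ZFAT and BEND3 gave only -0.21 and -0.46, and that of APOL6, named below, gave -0.83. The long noncoding RNA gene CCAT1 lay at -2.20, with its probes at -2.47 and -2.20. PLCB2, a phospholipase gene, lay at -1.97, the ubiquitin ligase gene TRIM65 at -1.85, PAPPA, which encodes a protease that frees insulin-like growth factors, at -1.84, APOL6 at -1.73 and MID1IP1, a gene of lipid synthesis, at -1.69. With normexp at an offset of 50 the fold, taken off the log scale, was over 1.5 times smaller for 5 genes. Their log2 changes were then 2.11 for C11orf96, 1.54 for GSDMB, -1.49 for CENPBD1, -1.41 for ZNF784 and -1.10 for APOL6. The median over the probes of ZFAT was -0.98.

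**Figure D2:**
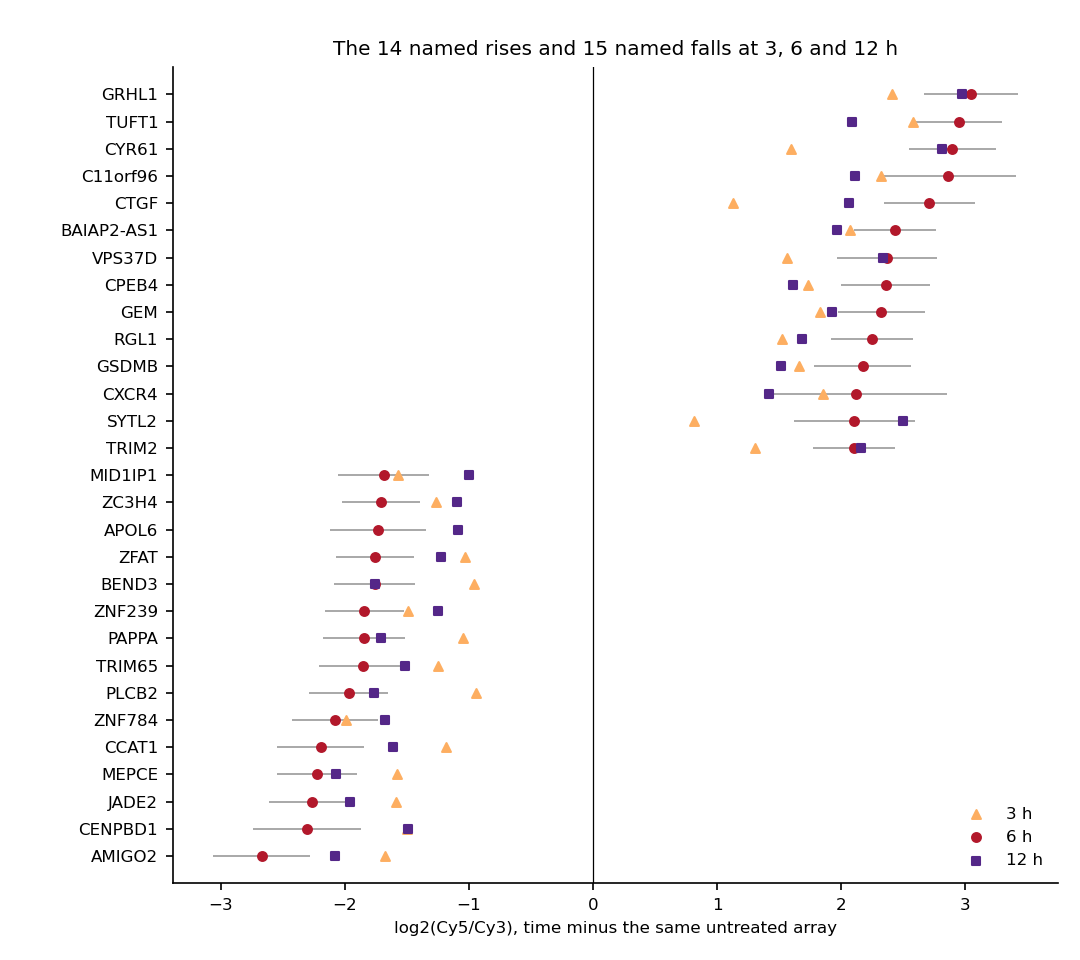
Log2 change from the untreated array (horizontal axis) for 14 named rises and 15 named falls (1 row a gene) at 3 h (triangles), 6 h (circles, with the technical error as a grey line) and 12 h (squares). All 3 times share the same untreated array, APOL6 was not measured at 3 h, and GRHL1, for example, stood at 2.41, 3.05 and 2.98.

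In the heat shock response, factor HSF1 binds repeats of the heat shock element in front of chaperone genes when unfolded proteins take up the chaperones that restrain it. All 18 genes of the list were measured, 4 rose and 0 fell, and the median log2 change was 0.05. The risers were HSP70 genes and a partner. HSPA1A had Cy5 signals of 37870 untreated and 144900 at 6 h, with Cy3 at 23630 and 23670, averaged over 10 spots, and a change of 1.93 ± 0.38. Its near-identical neighbour HSPA1B went from 12850 to 48140 (1.85 ± 0.38), and the 2 transcripts may share signal on these probes. HSPA1L, of the same cluster, went from 430 to 1437 (1.31 ± 0.39). DNAJB1 went from 8394 to 18660 (1.09 ± 0.33). All 4 were higher at 6 h than at either other time, with HSPA1B at 1.27 at 3 h and 1.19 at 12 h, and DNAJB1 at 0.57 and 0.72. The remaining genes of the list stayed within 2-fold. HSF1 did too, with -0.29 from the probe used. Its lowest probe was dim, with Cy5 signals of 55.4 and 32.1, and gave -1.17, but -0.07 after normexp.

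The bases in front of the risers are shown because the element of the response can be read in them. The sequences are RefSeq's 250 bases before the annotated start, in build GRCh38.p14, 5′ to 3′ on the strand of the gene. Capitals mark each match to GAANNTTC, a pair of facing repeats of the heat shock element that reads the same on both strands.
HSPA1A, chr6:31815293-31815542, plus strand: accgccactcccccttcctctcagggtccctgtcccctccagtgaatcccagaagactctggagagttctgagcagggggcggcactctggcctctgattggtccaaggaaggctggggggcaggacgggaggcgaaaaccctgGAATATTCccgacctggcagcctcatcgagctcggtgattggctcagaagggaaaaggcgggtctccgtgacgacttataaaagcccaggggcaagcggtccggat
HSPA1B, chr6:31827488-31827737, plus strand: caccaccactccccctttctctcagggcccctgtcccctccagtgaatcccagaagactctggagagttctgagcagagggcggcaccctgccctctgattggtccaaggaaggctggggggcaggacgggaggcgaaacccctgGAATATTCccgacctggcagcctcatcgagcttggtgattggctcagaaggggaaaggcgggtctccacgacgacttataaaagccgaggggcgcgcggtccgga
DNAJB1, chr19:14518398-14518647, minus strand: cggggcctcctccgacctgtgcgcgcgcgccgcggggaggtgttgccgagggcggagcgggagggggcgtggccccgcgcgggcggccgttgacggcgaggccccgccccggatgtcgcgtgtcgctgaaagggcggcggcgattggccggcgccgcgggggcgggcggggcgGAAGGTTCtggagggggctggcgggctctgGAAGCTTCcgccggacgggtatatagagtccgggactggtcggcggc
The match began 106 bases before the start of HSPA1A and 105 bases before that of HSPA1B, in almost the same surroundings. HSPA1L runs the other way from a start beside HSPA1A, its window (chr6:31815284-31815533, minus strand) shares 241 bases with that of HSPA1A, and it holds the same match 161 bases before its own start. DNAJB1 has 3 annotated starts in the table, and the one shown had matches at 77 and 47 bases before it, while the other 2 had none. Of all 35116 RefSeq promoters, 5.78% held the pattern and 0.290% held it more than once. Of the 18 list genes 16 had a promoter among these and 10 held the pattern. These were the risers and also DNAJA1, HSP90AA1, HSP90AB1, HSPA8, HSPB1 and HSPD1, which did not rise. A gene was counted if any of its promoters held the pattern, so this count and the share per promoter are in unlike units.

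**Figure D3:**
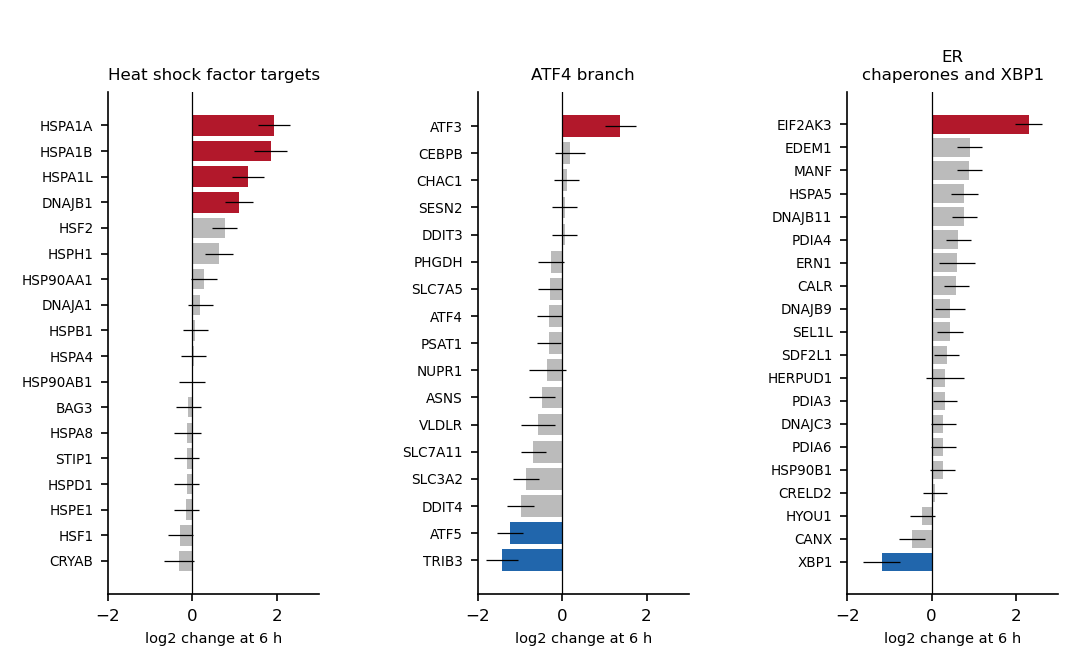
Log2 change at 6 h (horizontal axis) of each measured gene of 3 stress lists, with the technical error as a line, risers past 2-fold in red, fallers in blue and the rest in grey. In the heat shock list 4 genes passed 2-fold, most of the ATF4 branch lay below 0 (12 of 17), and most of the endoplasmic reticulum list lay above 0 (17 of 20).

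The other arms of the response to damaged proteins differed among themselves. Of 20 measured genes for endoplasmic reticulum chaperones and the XBP1 arm, 17 lay above 0 and the median was 0.39, with 1 gene past 2-fold on each side. EIF2AK3, which encodes the stress sensor kinase PERK, rose from 201 to 1079 (2.29 ± 0.33, and 1.63 after normexp), beside 1.89 at 3 h and at 12 h. XBP1, the transcription factor of the arm, fell from 10740 to 5337 (-1.18 ± 0.44). The chaperone gene HSPA5 (BiP) lay at 0.77, beside 0.29 at 3 h and 1.51 at 12 h, and EDEM1 and MANF lay at 0.90 and 0.89. In the ATF4 branch, which PERK and other kinases start through eIF2alpha, 12 of 17 measured genes lay below 0 and the median was -0.31. TRIB3, a feedback pseudokinase gene, fell from 15050 to 6789 (-1.42 ± 0.38), and ATF5 from 552 to 285 (-1.23 ± 0.30, and -0.61 after normexp with an offset of 50). ATF3 was the only gene of the branch that rose, and DDIT4 lay at -0.98, beside -0.68 at 3 h and 0.30 at 12 h. Aggresome and autophagy genes had a median of 0.31 over 21 genes, with 1 riser, WIPI1, an autophagosome gene (1289 to 3486, 1.19 ± 0.42). ULK1, the kinase gene that starts autophagy, lay at 0.96. MAP1LC3B lay at 0.82 with the probe used (1.02 after normexp), and its second probe gave 1.65. All 33 proteasome genes lay between -0.36 and 0.42. Of 14 measured NRF2 and redox genes GLRX rose and KEAP1 fell (4504 to 1611, -1.43 ± 0.30), and the NRF2 targets HMOX1 and GCLC lay at -0.35 each. None of 11 measured metallothionein genes and partners passed 2-fold.

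Immediate early genes, which cells switch on within minutes of a stimulus, gave a list median of 0.75 over 19 measured genes, with 8 risers and 2 fallers. The orphan nuclear receptor genes led. NR4A3 went from 76.4 to 866 in Cy5, with Cy3 at 1044 and 1333, a change of 3.15 ± 0.46, and NR4A1 from 65.6 to 336 (2.03 ± 0.46). EGR2, a zinc finger factor gene, went from 37.6 to 196 (2.11 ± 0.51). These 3 were dim when untreated, and normexp with an offset of 50 gave 1.78 for NR4A3, 0.999 for NR4A1 and 0.54 for EGR2. Against the rest of the list MYC fell from 19930 to 10150 (-1.13 ± 0.32), beside -0.95 at 3 h and -0.43 at 12 h, and FOSL1, which encodes the AP-1 part FRA1, fell from 4811 to 2292 (-1.03 ± 0.34). The list median was 0.39 after normexp with an offset of 50. Of 15 measured genes of MAPK feedback, 3 rose and 1 fell. DUSP5 and DUSP1, phosphatase genes that switch off MAP kinases, rose from 328 to 1719 (1.99 ± 0.32) and from 1722 to 4476 (1.21 ± 0.32), and the factor gene ETV5 from 421 to 1038 (1.07 ± 0.30, and 0.84 after normexp). SPRY2, an inhibitor of receptor signalling, fell from 2057 to 1110 (-1.01 ± 0.33).

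YAP and TAZ (WWTR1), the effectors of the Hippo pathway, act through TEAD factors. Of 17 measured targets only 2 rose, both of them among the largest changes named above. CYR61 had Cy5 signals of 19880 untreated and 135300 at 6 h and Cy3 signals of 37380 and 34190, a change of 2.90 ± 0.35. It stood at 1.59 at 3 h and 2.81 at 12 h. CTGF went from 344 to 2755, with Cy3 at 1878 and 2298 (2.71 ± 0.37), beside 1.13 at 3 h and 2.06 at 12 h. TGFB2 fell from 1362 to 635 (-1.18 ± 0.43). The other 14 lay within 2-fold, with NUAK2 at 0.78, and the list median was -0.07, a value that turned positive with Cy5 alone (0.09) and after normexp with an offset of 50 (0.02).
The 250 bases before the start of CTGF (CCN2) are shown because they hold 3 copies of GGAATG, the core that TEAD factors bind, searched on both strands and given in capitals.
CTGF, chr6:131951373-131951622, minus strand: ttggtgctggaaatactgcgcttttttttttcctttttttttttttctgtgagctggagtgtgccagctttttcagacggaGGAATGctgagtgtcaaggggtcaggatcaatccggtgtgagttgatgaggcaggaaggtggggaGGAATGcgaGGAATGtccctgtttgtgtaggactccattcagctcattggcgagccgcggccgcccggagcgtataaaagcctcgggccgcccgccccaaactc
The copies began 169, 104 and 95 bases before the start. Of all 35116 promoters 11.9% held at least 1 copy and 0.0826% held 3 or more. Of the 18 list genes 13 had a promoter among these and 8 held a copy. Only CTGF of these rose, TGFB2 fell, ANKRD1 was not measured, and AJUBA, AMOTL2, AXL, NUAK2 and PTPN14 stayed within 2-fold. Here too a gene was counted if any of its promoters held a copy, unlike the share per promoter. CYR61 is named only.

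Inflammatory genes went both ways. Of 23 measured chemokine and cytokine genes 3 rose and 3 fell, with a median of 0.11 that was -0.07 with damaged areas left out. CCL20, the ligand of CCR6, went from 3872 to 18730 (1.93 ± 0.41), beside 1.01 at 3 h and 2.71 at 12 h. TNF went from 1542 to 5986 (1.54 ± 0.82), with dim Cy3 signals of 54.3 and 72.4. CXCL8, the neutrophil chemokine IL-8, went from 4624 to 13000 (1.36 ± 0.39), beside 0.23 at 3 h and 1.96 at 12 h. CXCL3, a chemokine gene of the same receptor, fell from 11860 to 4015 (-1.52 ± 0.49). LIF, a cytokine gene of the interleukin 6 family, fell from 1776 to 609 (-1.51 ± 0.32, with a second probe at -0.45), and IL24 from 1095 to 493 (-1.29 ± 0.49). LIF stood at -0.54 and IL24 at 0.35 at 12 h. Of 17 measured NF-kB genes 3 rose, NFKBIZ (1.31), the inhibitor gene NFKBIE (1.04) and the deubiquitinase gene CYLD (1.01), and BIRC3 lay at 0.91. In the SOCS and JAK-STAT list the median was 0.42 and 2 of 18 rose. SOCS2, a feedback inhibitor gene, went from 123 to 2974 (3.64 ± 0.55, and 2.71 after normexp), but its spot lay in a damaged area and its Cy3 signal went from 3420 to 6636. PIM1, a kinase gene downstream of STAT factors, went from 1817 to 4431 (1.18 ± 0.35). Among 20 measured interferon-stimulated genes IFIT1 rose (163 to 377, 1.04, and 0.80 after normexp) and IFIT3 fell (154 to 69.1, -1.37, and -0.42 after normexp with an offset of 50). None of 16 genes of MHC class I presentation passed 2-fold, and their median was 0.18.

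**Figure D4:**
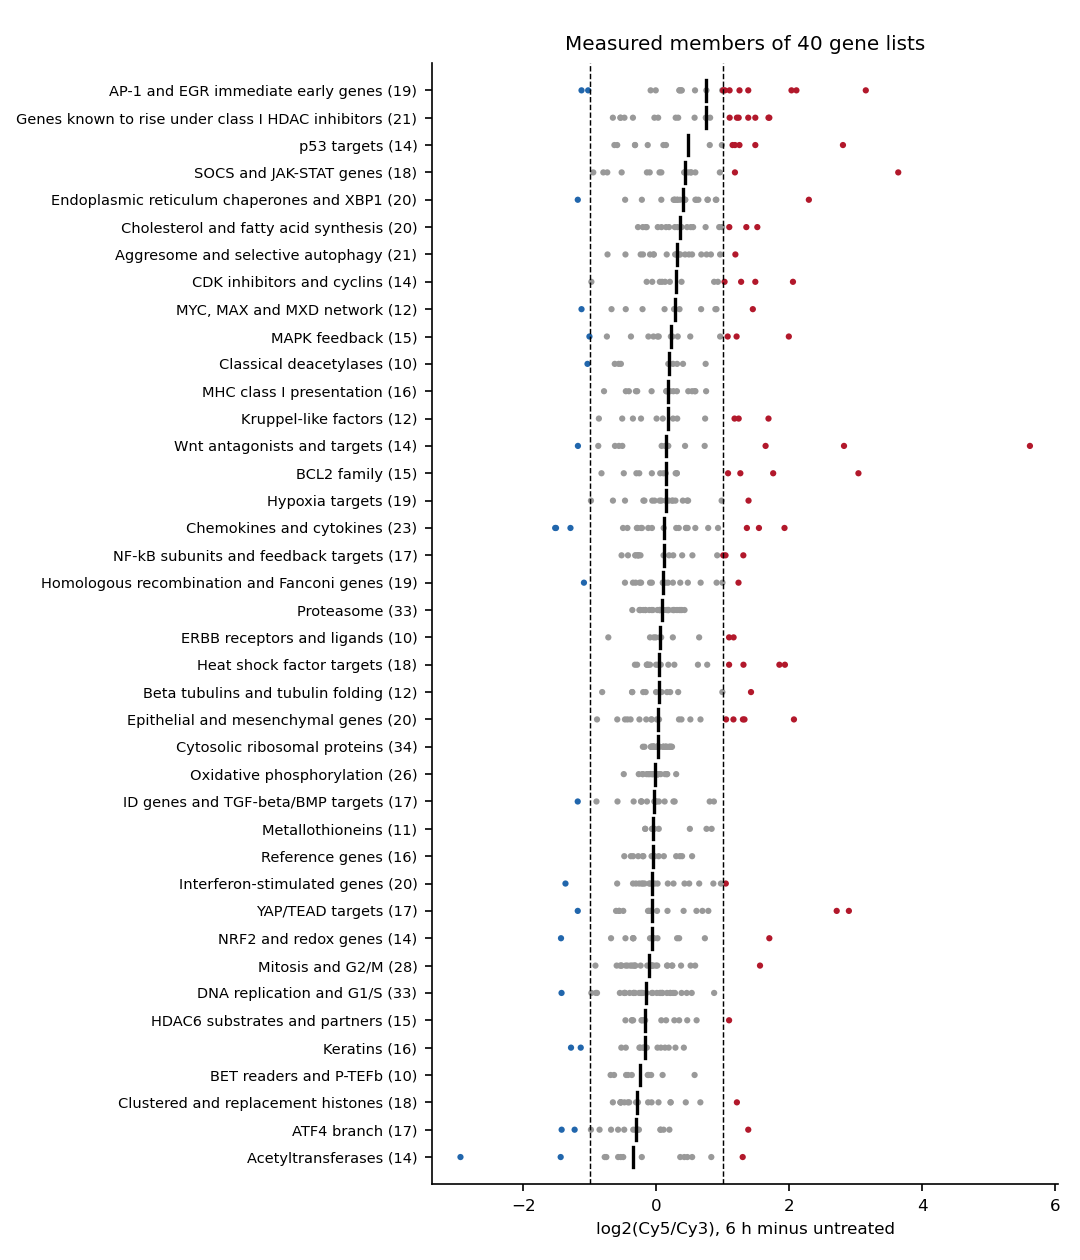
Log2 change at 6 h (horizontal axis) of every measured member of the 40 gene lists (1 row a list, number measured in brackets), with risers past 2-fold in red, fallers in blue, other members in grey, the list median as a black bar and dashed lines at 2-fold. Over all lists 65 of 683 measured genes rose and 21 fell, immediate early genes and class I HDAC inhibitor genes had the highest medians on this scale (0.75 and 0.74, but 0.39 and 0.59 after normexp), and ribosomal protein genes lay closest together (-0.20 to 0.24).

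Of 14 measured CDK inhibitor and cyclin genes 4 rose, all of them inhibitors. CDKN2D, which encodes p19 and blocks CDK4 and CDK6, went from 6044 to 28330 (2.05 ± 0.33), beside 1.66 at 3 h and 1.79 at 12 h. CDKN1C (p57) went from 470 to 1298 (1.27 ± 0.61) and CDKN2C (p18) from 1341 to 3354 (1.03 ± 0.34), and the fourth was CDKN1A, given above. The cyclin gene CCND1 lay at -0.98. In the MYC network MXD1, which opposes MYC at the same sites, rose from 899 to 2810 (1.45 ± 0.30) as MYC fell. Of 33 genes of DNA replication and G1/S 0 rose and 1 fell, GINS3 (8479 to 3073, -1.43 ± 0.30), and the median was -0.15. MCM5 and MCM4 lay at -0.91 and -0.89, and the highest gene, the cyclin gene CCNE1, at 0.87. In this list 14 genes lay above 0 and 19 below. Of 28 genes of mitosis 1 rose, the centrosome kinase gene NEK2 (1105 to 3849, 1.56 ± 0.34), and 0 fell. In the Fanconi and recombination list FANCM rose (2621 to 6709, 1.24 ± 0.34, beside 0.35 at 12 h) and BRCA2 fell (964 to 519, -1.09 ± 0.36, and -0.89 after normexp). Of 14 measured p53 targets 5 rose and 0 fell, led by TP53INP1 (49.6 to 437, 2.81 ± 0.50, and 1.42 after normexp), and followed by CDKN1A, RRM2B (269 to 852, 1.25) and SESN1 (149 to 416, 1.18, and 0.79 after normexp). Their median was 0.47, but -0.01 over the members above the median signal.

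In the BCL2 family, whose members promote or block cell death at the mitochondrion, 4 of 15 measured genes rose and 0 fell. The first 3 below encode BH3-only proteins, which promote death. BMF went from 79.1 to 1056 (3.04 ± 0.36, and 1.95 after normexp), in a damaged area, with a Cy3 signal that went from 296 to 482. PMAIP1 (NOXA) went from 1675 to 4685 (1.26 ± 0.33), and BCL2L11 (BIM) from 929 to 2325 (1.08 ± 0.33, with a probe brighter in Cy5, in a damaged area, at 0.34 and the remaining one at -0.20). The fourth was BCL2 itself, a blocker of death, from 71.4 to 281 (1.76 ± 0.53, and 1.04 after normexp), with a second probe at 0.53. BCL2L1 lay at -0.83 and MCL1 at 0.31.

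Of 20 measured epithelial and mesenchymal genes 11 lay above 0 and 9 below, with a median of 0.02. Past 2-fold, 5 rose and 0 fell. Junction proteins of epithelia are encoded by 4 of these: CLDN1 (448 to 1325, 1.33 ± 0.32), CLDN4 (8460 to 21430, 1.30 ± 0.33, in a damaged area), OCLN (263 to 829, 1.16 ± 0.37) and CDH1, E-cadherin (8233 to 17830, 1.05 ± 0.33). The fifth was ZEB1, a repressor of CDH1 (88.3 to 526, 2.07 ± 0.53, and 1.24 after normexp), which stood at 1.34 at 3 h and 0.41 at 12 h. Of 16 measured keratin genes 0 rose and 2 fell, KRT16 (6525 to 4418, -1.28 ± 0.64) and KRT14 (2920 to 1796, -1.14 ± 0.77). After normexp they gave -0.97 and -0.79. Cy3 went from 227 to 374 for KRT16, and Cy5 alone gave -0.75. A brighter KRT14 probe that did not pass the filter had Cy5 signals of 17300 and 24000. The Wnt antagonist gene DACT3 had the largest change of any gene named here, from 54.2 to 3192 in Cy5 with Cy3 at 512 and 614, a change of 5.62 ± 0.47, beside 4.15 at 3 h and 4.71 at 12 h, and was 3.79 after normexp. Its relative DACT1 went from 100 to 859 (2.82 ± 0.36, and 1.76 after normexp), and AXIN2, a Wnt target, from 26.4 to 99.8 (1.64 ± 0.53, and 0.42 after normexp), though its other probe gave 0.01. DKK1, a secreted antagonist, fell from 14240 to 7109 (-1.18 ± 0.42), beside -1.56 at 3 h and -0.16 at 12 h. Of 12 measured Kruppel-like factor genes 3 rose, KLF2, KLF4 (166 to 504, 1.24, and 0.68 after normexp) and KLF5 (2624 to 6841, 1.18). Among ERBB receptors and ligands ERRFI1, a feedback inhibitor of EGFR, rose (6394 to 15180, 1.16 ± 0.30), as did the ligand gene HBEGF (194 to 657, 1.09 ± 0.36, and 0.82 after normexp), and EGFR lay at -0.72. INHBA, an activin gene, was the only one of 17 ID and TGF-beta genes past 2-fold (32240 to 14190, -1.18 ± 0.54).

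Genes of metabolism, structure and upkeep made up the remaining lists. Of 20 measured cholesterol and fatty acid genes 3 rose and 0 fell, with a median of 0.35: IDI1 (3487 to 10460, 1.52 ± 0.31), HMGCS1 (763 to 2529, 1.35 ± 0.35) and SC5D (59.7 to 167, 2.14-fold, and 0.41 on the log2 scale after normexp with an offset of 50). SQLE lay at 0.99. In the hypoxia list only BNIP3L, a mitophagy gene, rose (945 to 2766, 1.39 ± 0.42), and a brighter probe that the Cy3 filter set aside gave 0.11. Beta tubulin genes, the partners of the HDAC6 substrate, held 1 riser in 12, TUBB2B (214 to 698, 1.42 ± 0.53), with TUBB2A at 0.99 and TUBB6 at -0.82. Of 18 measured histone genes, the linker histone gene H1F0, a gene long known to respond to HDAC inhibitors, rose (346 to 859, 1.21 ± 0.48), and the median was -0.29. None of 10 measured BET reader and P-TEFb genes passed 2-fold, and 8 of them lay below 0. None of 34 ribosomal protein, 26 oxidative phosphorylation or 16 reference genes passed 2-fold, with medians of 0.02, -0.01 and -0.05.

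Whether 6 h differed from every other array was asked over the 19236 genes measured on all 4. On the log2(Cy5/Cy3) scale the 6 h array was at least 2-fold above each of the other 3 for 12 genes (0.0624%) and at least 2-fold below each for 7 (0.0364%). The same counts were 112 and 329 for the untreated array, 2 and 1 for 3 h, and 27 and 22 for 12 h. The untreated array was the one most often apart. None of the 12 and 7 genes was above the median signal. Above it, and outside damaged areas, the widest gaps to the nearest other array were -0.68 for KLHDC7B and 0.68 for KIAA0513. KLHDC7B stood at 4.60 untreated and 3.93, 3.25 and 3.97 at 3, 6 and 12 h. KIAA0513 stood at -2.09 untreated and -0.97, -0.17 and -0.85. CTGF (0.65), CPEB4 (0.63) and SH3D21 (0.62) were likewise highest at 6 h. CYP1B1, a cytochrome P450 gene (-0.64), C15orf52 (-0.64), KRT16 (-0.63), the phosphodiesterase gene PDE4B (-0.61) and AMIGO2 (-0.59) were lowest at 6 h. All of these gaps were below 2-fold.

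Genes seen on only 1 of the 2 arrays have a bound in place of a change. Outside damaged areas and flagged spots, and with Cy3 within 2-fold, 446 genes were well above background in Cy5 at 6 h and had no such probe untreated, and 1044 were so the other way. After normexp with an offset of 50 and normalization, the bound reached 2-fold for 2 of the 446 and for 0 of the 1044. A bound under 2-fold does not show that the change itself was under 2-fold. The 2 were TDRD6, a tudor domain gene of germ cells (at least 2.12-fold, Cy5 19.0 untreated and 287 at 6 h), and PURG, a relative of the nucleic acid binding factor PURA (at least 2.11-fold, 4.25 and 245).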

How the data were processed

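RNA of SUM149 cells, untreated or given 2.5 uM Ricolinostat for 3, 6 or 12 h, was labelled with Cy5 and hybridised against a Cy3 reference on Agilent arrays, 1 array a condition (design 072363, annotated on hg19). The authors deposited the scanner output of Feature Extraction 12.0.1.1 (protocol GE2_1200_Jun14), which holds the mean and processed intensity of each spot after background subtraction and dye normalization, and the log10 ratio with its error. The deposited signals are already dye-normalized, and here were rounded to 4 significant digits for display. A second deposited table, with the authors' normalized log2 ratios, served only as an alternative.

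From the processed intensities of both channels, a log2 ratio was formed for each spot, spots were averaged per probe, and a gene took the passing probe with the highest mean Cy3 signal over both arrays. Of 62976 spots, 32276 passed on both arrays, after 552 were dropped for a Cy3 difference over 2-fold. Normexp with an offset of 50 or 1, loess and Aquantile were run in limma 3.58.1 (R 4.3.3), and the rest in Python 3.11.15, numpy 2.4.6, pandas 2.3.3 and matplotlib 3.10.9. Both steps were tested on simulated data. With 1 array a condition no test was possible, and precision is limited by the number of arrays. Gene symbols are those of the array design, and 16287 of the measured genes (80.2%) are also in the RefSeq table that gave the promoters.

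The genes named were HDAC6, its substrates and partners, the 15 largest rises and 15 largest falls under the criteria given in the text, up to 4 members of each list with the largest change, members against their list's median, the 10 genes with the widest gap of the 6 h array to the nearest other one, and those with a bound past 2-fold. A few results, among them 1 of the 15 rises, are not reported here. A few further members were picked for mention with their values in view. The comparison, the members and the 40 lists were chosen with earlier results of these data known.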

Additional observations from a re-analysis of the deposited data

How the results depend on the processing

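No paired analysis was possible because each condition was 1 array. No named change of at least 2-fold changed sign under the alternatives run. Beside 1107 higher and 587 lower genes, normexp with an offset of 50 gave 565 and 173, genes above the median signal 416 and 210, the weaker detection flag 1697 and 1093, a 1.5-fold threshold 2702 and 2204, and a 4-fold threshold 132 and 26, and the authors' normalized table gave 377 lower genes. Of list members (65 higher, 21 lower), 40 and 13 lay above the median signal, and normexp with an offset of 50 left 12 lower. The genes for which 6 h stood above (12) or below (7) each other array were 0 and 0 with normexp at an offset of 50, above the median signal or at 4-fold, 4 and 0 with an offset of 1, 2 and 0 in the authors' table, 46 and 81 with the weaker flag, and 94 and 97 at 1.5-fold, and Cy5 alone left 2 below. The weaker flag left 1 gene with a bound past 2-fold. The cause was not tested. Other counts stayed within 1.5 times, with median centring, spots without the Cy3 filter, damaged areas left out and the median over probes among the alternatives. Signal over background limits dim genes most: of the 116 named and list genes followed, 34 moved by more than their error with normexp at an offset of 50. List medians changed sign under at least 1 of 5 other scalings for 12 lists, all with a median within 0.19 of 0, among them heat shock, proteasome, interferon and YAP genes and the deacetylases. Over all alternatives 16 lists changed sign. Above the median signal the median turned for acetyltransferases (-0.36 to 0.07), p53 targets (0.47 to -0.01) and Wnt genes (0.15 to -0.22), and with damaged areas left out for chemokines and cytokines (0.11 to -0.07).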
